A study of Mus musculus with 50 samples.

Results

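The comparison of 28 months-old with 26 months-old mice covered the last 2 months of an ageing series of the gastrocnemius, a predominantly fast muscle of the calf. It used 18 of the 50 mice in the series, 9 at each of these ages, chosen by the age on their labels and by no measured value. All were male wild-type C57BL/6JRj mice, an inbred laboratory strain, received the purified diet AIN-93M and were housed singly, and 1 stranded mRNA library was made from each mouse. The other ages, 8, 18, 22 and 24 months, had 8 mice each and entered the fit to estimate the spread between mice. The mice of 22 to 28 months shared 1 diet history, mice with overt illness or tumors had been left out by the study, so that the oldest groups hold survivors without visible disease, and how sarcopenic each individual mouse was is not analysed here. Total counts per library lay between 13920425 and 18945656 at 26 months (median 16497904) and between 15402149 and 17443783 at 28 months (median 15922011). The defining transcripts of skeletal muscle were abundant in all 18 libraries, with Acta1, the skeletal actin, between 17100 and 40400 CPM and Ckm, the muscle creatine kinase, between 14300 and 30500 CPM. CPM is the usual unit of gene counts scaled to a common library size, here corrected with the TMM factors of edgeR.

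Sarcopenia is the loss of muscle mass and strength with age, and in the mouse it becomes marked in the last months of life. Old muscle is known for fibres that lose their motor nerve and switch on embryonic receptor genes, for a lower abundance of mitochondrial transcripts, and for infiltration by immune cells. It is also exposed to systemic signals, such as glucocorticoids, fasting and acute-phase cytokines, which act on protein breakdown through the ubiquitin ligases of the muscle.

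No gene separated the 2 ages after adjustment. Among 12586 genes in the quasi-likelihood fit of edgeR, 0 passed an FDR of 0.01 and 0 passed 0.05, and the smallest FDR was 0.140. At an unadjusted p under 0.05, referred to below as a nominal difference, 1609 genes (12.8%) differed, 965 of them higher (7.67% of all genes tested) and 644 lower (5.12%) at 28 months. Their FDR reached up to 0.391, and a nominal difference is therefore a description and not a call. At an FDR of 0.05 the likelihood ratio test of edgeR passed 6 genes, DESeq2 5 genes and limma on log2(TPM + 1) 2 genes, TPM being the deposited values scaled by transcript length. Differences were small in size. The median absolute log2-fold change was 0.11 with a median standard error (SE) of 0.12, and 99.7% of the genes differed by less than 2-fold, with 22 at least 2-fold higher and 14 at least 2-fold lower. The split of nominal differences, 60.0% higher, depended on the scaling and was 49.4% with upper-quartile factors, 51.0% with voom and sample weights and 77.1% with limma on TPM. The number of nominal differences rested on single mice. It was 952 (536 higher and 416 lower) without 28 months replicate 2, with 780 of the 1609 genes kept, and 2578 without 28 months replicate 3, with 1545 kept. Without 28 months replicate 3, 24 genes passed an FDR of 0.05, and without 26 months replicate 1, 30 genes did, while 0 genes passed 0.01 in either case.

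The 9 mice of 28 months were spread more widely than the 9 of 26 months along the first principal component (PC1) of the 50 mice, although neither the position nor the spread differed at a p of 0.05. PC1 held 37.7% of the variance of 12452 genes. Mice of 26 months lay at 14.47 ± 13.89 (SD, n = 9) and mice of 28 months at 27.15 ± 22.65 (SD, n = 9). The difference in means was 12.68 (p = 0.171, two-sided exact permutation test over 48620 splits), and the smallest p this design allows is 4.114e-05. Values ran from -0.7634 to 39.75 at 26 months and from -5.213 to 63.81 at 28 months. Of the 28 months-old mice, 5 lay inside the range of the younger group, 3 above it and 1 below it. Those above were replicate 2 at 63.81, replicate 1 at 46.09 and replicate 5 at 44.57, and the one below was replicate 3. The mean distance from the group's PC1 median was 6.886 larger at 28 months (p = 0.217, exact permutation test). Measured over whole profiles, the distance of a mouse from the mean profile of its age was 0.3394 ± 0.04776 log2 units per gene at 26 months and 0.3895 ± 0.1123 at 28 months (SD, n = 9 each, p = 0.252, exact permutation test). The difference of 0.0502 became 0.0124 without replicate 2 (p = 0.641, exact permutation test), and that mouse lay at a distance of 0.644.

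**Figure D1:**
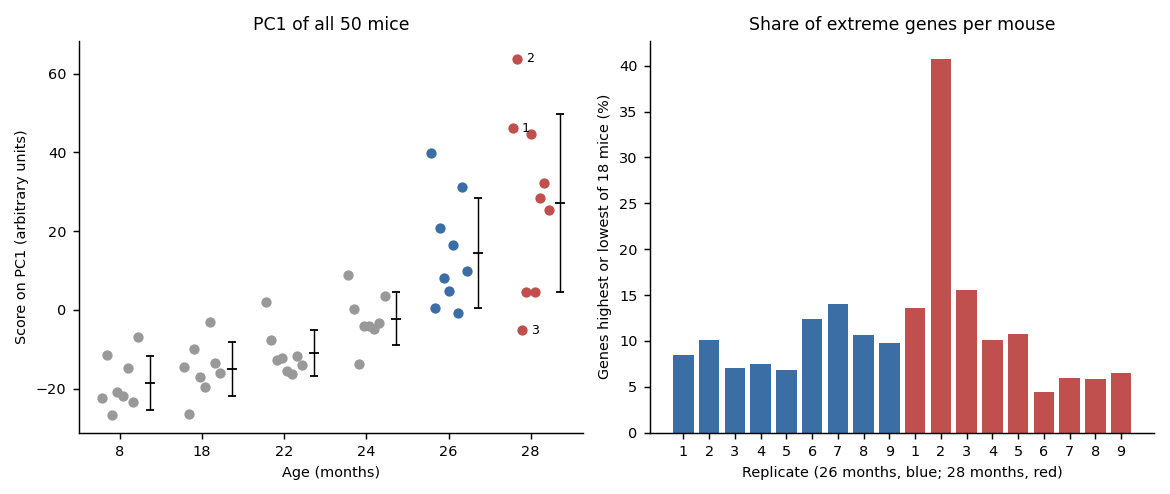
Position of each of the 50 mice on PC1 by age in months, with the mean and SD of each age, and the share of the 12586 tested genes in which each of the 18 mice of 26 and 28 months was the highest or the lowest. The mice of 28 months run from -5.213 to 63.81, beyond both ends of the 26 months-old mice, and replicate 2 of 28 months was extreme in 40.7% of the genes.

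Replicate 2 of 28 months stood apart in breadth. It was the highest of the 18 mice in 2650 genes and the lowest in 2473, together 40.7% of all genes tested, while the other 17 mice were extreme in 4.37% to 15.6%. Its library total of 17443783 counts was the largest at 28 months and lay inside the range of the 26 months-old mice. Genes most displaced upwards in this mouse included acute-phase and myeloid genes. Chil3, a chitinase-like protein of myeloid cells, stood at 78.1 CPM against 2.81 in the next highest mouse. Lcn2, the iron-siderophore binding acute-phase protein lipocalin 2, stood at 53.5 against 6.83 CPM. Slc39a14, a zinc and iron importer induced in inflammation, reached 233 against 40.5 CPM. Serpina3n, an acute-phase serine protease inhibitor, reached 271 against 49.9 CPM, and the leukocyte integrin gene Itgb2 40.0 against 10.1 CPM. Genes most displaced downwards included genes of fast muscle. Mss51, a mitochondrial protein gene of fast muscle, stood at 42.6 CPM against 157 in the next lowest mouse, and Prkag3, the AMPK subunit of fast glycolytic fibres, at 32.5 against 98.1 CPM. Myod1, the myogenic regulator, stood at 1.13 against 3.68 CPM. These genes were chosen because the mouse was extreme in them, so that the values describe this mouse and carry no test.

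The summed macrophage, neutrophil and erythroid lists were at an extreme in this mouse, and so were other marker lists. Its sum was the highest of 18 mice for lymphocyte and plasma cell genes (40.7 CPM). For fast fibre (126000 CPM), myogenic and satellite cell (791 CPM), fibroblast (1460 CPM) and Schwann cell genes (113 CPM) it was the lowest. The slow fibre, adipocyte and endothelial sums were not at an extreme. The macrophage list, summed over its 20 genes, reached 969 CPM in replicate 2, the highest of 18 mice, with medians of 529 CPM at 26 months (range 379 to 761) and 532 CPM at 28 months (range 374 to 969). It was highest in 11 of the 20 macrophage genes. Ptprc, which encodes the pan-leukocyte antigen CD45, was 33.3 CPM in this mouse against 13.7 CPM in the next highest. It belongs to the lymphocyte and plasma cell list, in which replicate 2 was highest in 2 of 4 tested genes and ranked 4 of 18 by mean level. Cd247 of that list was 0.161 CPM in replicate 2, the lowest value at 28 months. The summed neutrophil list was 125 CPM in replicate 2, with medians of 17.6 at 26 months (range 11 to 82) and 17.9 at 28 months (range 9.6 to 125). Lcn2 alone gave 53.5 CPM of the sum, and the mouse was highest in 2 of 6 tested neutrophil genes. A mouse of 26 months was higher in S100a9, a calcium-binding protein of neutrophils, at 35.5 against 27.6 CPM. Erythroid genes went the other way. Their sum was 169 CPM in replicate 2, the lowest of 18 mice, with medians of 755 CPM at 26 months (range 380 to 1330) and 1050 CPM at 28 months (range 169 to 2170). In bulk tissue a larger number of cells of a type and more RNA per cell cannot be told apart, and the part of these markers in the results below was not tested. Counts and medians of the lists below are given with and without replicate 2 where it moves them by over 1.5 times.

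Genes of the nerve-muscle contact showed a nominal shift that remained without replicate 2. Denervation, the loss of motor nerve contact, is known to raise the subunits of the embryonic acetylcholine receptor and the myogenic regulators along the whole fibre. Of 19 tested genes of the denervation list, 6 were nominally higher and 1 lower at 28 months, against 7.67% higher and 5.12% lower among all genes. The median log2-fold change of the list was 0.28, against 0.01 over all genes, and it was 0.26 without replicate 2, where again 6 were nominally higher and 0 lower. Without replicate 1 it was 0.17, with 4 nominally higher.

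Runx1, a transcription factor that limits wasting of denervated fibres, ran from 4.35 CPM (median 8.5) to 11.6 at 26 months and from 6.77 (median 12.5) to 30.7 at 28 months. Its log2-fold change was 0.93 ± 0.24 (SE, FDR = 0.206), 0.75 without replicate 2, and 5 mice of 28 months exceeded every younger mouse. Ampd3, an AMP deaminase raised in denervated and fasted muscle, was 20.4 to 55 CPM (median 28.6) at 26 months and 18.8 to 240 CPM (median 46.6) at 28 months. Its log2-fold change of 0.91 ± 0.27 (SE, FDR = 0.234) was 0.32 without replicate 2, which held the value of 240 CPM. Myog, the myogenic regulator myogenin, gave a log2-fold change of 0.77 ± 0.33 (SE, FDR = 0.348), with medians of 5.75 and 6.19 CPM and a single high value of 35.9 CPM in replicate 1 of 28 months. Of 13 tested myogenic and satellite cell genes, 2 were nominally higher and 1 lower (15.4% and 7.69%, against 7.67% and 5.12% of all genes). Without replicate 2 the numbers were 3 and 0, and without replicate 1 the number higher was 1. The lower gene was Myod1 (-0.67 ± 0.29 SE, FDR = 0.348), lowest in replicate 2, and Myf6 was at 0.05. Chrng, the subunit of the embryonic receptor, was below the filter and not tested.

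The receptor subunits diverged in sign. Chrna1, the alpha subunit of the acetylcholine receptor, was 20.7 to 43.0 CPM (median 37.5) at 26 months and 28.6 to 58.8 CPM (median 41.8) at 28 months, with a log2-fold change of 0.34 ± 0.14 (SE, FDR = 0.347). Chrne, the subunit of the adult, innervated receptor, was the only member nominally lower and is named after its value was seen. It was 8.46 to 16.6 CPM (median 12.2) at 26 months and 3.22 to 12.6 CPM (median 10.9) at 28 months, with a log2-fold change of -0.30 ± 0.15 (SE, FDR = 0.381) that was -0.18 without replicate 2, the lowest mouse. Ncam1, the neural cell adhesion molecule that spreads over denervated fibres, was above the younger median in 9 of 9 mice of 28 months (log2-fold change 0.25 ± 0.13 SE, FDR = 0.431).

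Among Schwann cell and myelin genes, 1 of 14 was nominally higher (7.14%, against 7.67% of all genes). The median log2-fold change was 0.06, and without replicate 2 it was 0.15, with 2 genes nominally higher. The gene with all mice was Ngfr, the low-affinity neurotrophin receptor p75, which Schwann cells are known to express again after losing axon contact. It ran from 0.408 to 1.97 CPM (median 0.976) at 26 months and from 1.13 to 3.08 CPM (median 2.57) at 28 months. Its log2-fold change was 1.02 ± 0.24 (SE, FDR = 0.140) and stayed between 0.92 and 1.16 when each mouse was left out, with 6 of 9 mice of 28 months above every mouse of 26 months. The defining lineage genes Sox10 (log2-fold change 0.44 ± 0.23 SE) and S100b (-0.55 ± 0.30 SE) pointed in opposite directions and were not nominally different. The summed Schwann list was 116 to 209 CPM (median 183) at 26 months and 113 to 329 CPM (median 169) at 28 months, so the groups overlapped.

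Replicate 1 of 28 months was the highest mouse in several of the leading higher genes. Fosl2, an AP-1 transcription factor, was 16.1 to 40.3 CPM (median 27.1) at 26 months. In the 9 mice of 28 months it was 351 CPM in replicate 1, 106 in replicate 2, 16.8 in replicate 3, 26.8 in replicate 4, 73.8 in replicate 5, 18.8 in replicate 6, 26.5 in replicate 7, 92.4 in replicate 8 and 34.3 in replicate 9. Thus 4 mice exceeded all younger mice and 5 did not, and the median was 34.3 CPM. The log2-fold change was 1.49 ± 0.35 (SE, FDR = 0.140) with all mice and 0.75 without replicate 1. Nr4a2, an orphan nuclear receptor of the immediate early class, had medians of 1.26 and 1.38 CPM and a highest value of 34.2 CPM in replicate 1, with a log2-fold change of 1.9 ± 0.52 (SE, FDR = 0.234). Irs2, the insulin receptor substrate that is raised in fasting, had medians of 54.3 and 73.6 CPM and a highest value of 545 CPM in replicate 1. Its log2-fold change of 1.15 ± 0.32 (SE, FDR = 0.234) was 0.47 without that mouse, and that of Nr4a2 was 0.60 without it.

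Replicate 1 was also the highest mouse in Coq10b, Plk2 and Pim1. Coq10b, which encodes a coenzyme Q-binding protein of mitochondria, was 10.5 to 19.3 CPM (median 14.8) at 26 months and 14.9 to 55.6 CPM (median 19.7) at 28 months, with a log2-fold change of 0.76 ± 0.17 (SE, FDR = 0.140) that was 0.52 without replicate 1, and 6 of 9 older mice lay above every younger mouse. Plk2, a polo-like kinase of the stress response, had medians of 12.1 and 13.3 CPM with 63.3 CPM in replicate 1 (log2-fold change 0.78 ± 0.23 SE, FDR = 0.234, and 0.34 without that mouse). Pim1, a kinase downstream of cytokine receptors, had medians of 13.3 and 12.2 CPM with 181 CPM in replicate 1. Its log2-fold change of 1.23 ± 0.40 (SE, FDR = 0.267) was 0.14 without replicate 1. Akap12, an anchoring protein of protein kinase A, rested on replicate 2 instead, with 65.6 CPM there, medians of 12.1 and 14.6 CPM, and a log2-fold change of 0.93 ± 0.21 (SE, FDR = 0.140) that was 0.53 without it.

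Promoters of 3 of these genes are printed because they hold the core of the element bound by CREB, the cyclic AMP-responsive transcription factor. Each run is the 250 bases before the RefSeq start of the gene (GRCm38.p6) on the strand of the gene, and capitals mark TGACG, searched on both strands, so that CGTCA is the same motif on the other strand.
Nr4a2, chr2:57124004-57124253, minus strand: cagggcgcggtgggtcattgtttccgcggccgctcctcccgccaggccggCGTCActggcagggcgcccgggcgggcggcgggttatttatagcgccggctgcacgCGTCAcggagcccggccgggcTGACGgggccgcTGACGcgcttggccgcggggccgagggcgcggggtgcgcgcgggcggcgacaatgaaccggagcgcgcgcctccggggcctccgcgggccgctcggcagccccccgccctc
Coq10b, chr1:55052520-55052769, plus strand: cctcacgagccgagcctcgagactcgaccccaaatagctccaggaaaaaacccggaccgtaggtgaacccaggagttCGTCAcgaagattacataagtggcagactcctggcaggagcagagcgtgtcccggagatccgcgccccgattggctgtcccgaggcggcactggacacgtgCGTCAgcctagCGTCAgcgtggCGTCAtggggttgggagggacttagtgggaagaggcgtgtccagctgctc
Plk2, chr13:110394794-110395043, plus strand: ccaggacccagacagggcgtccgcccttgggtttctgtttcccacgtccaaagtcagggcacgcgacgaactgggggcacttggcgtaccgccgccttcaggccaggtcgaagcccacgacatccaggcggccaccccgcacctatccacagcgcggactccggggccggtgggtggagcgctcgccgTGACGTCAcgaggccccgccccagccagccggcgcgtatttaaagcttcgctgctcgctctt
The promoters of Nr4a2 and Coq10b held 4 copies each, a count reached by 0.137% of 32851 RefSeq promoter windows of the same length, while 17.8% held at least 1. That of Plk2 held the full palindrome TGACGTCA, which contains the motif on both strands and was present in 1.55% of windows. Fosl2, Irs2 and Pim1 had no copy in this window. The genes were chosen after their values were seen, and the 3 printed were chosen for their matches. The shares of windows therefore carry no test, and a match is a description of the letters.

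Immediate early genes as a class did not move one way. Of 20 tested, 6 were nominally higher and 3 lower, against 7.67% higher and 5.12% lower among all genes. Both shares were thus larger in this class than among all genes. The median log2-fold change was 0.02, or -0.01 with upper-quartile factors. Without replicate 2, 3 were higher and the median was 0.10, and without replicate 1, 2 were higher and it was -0.08. Egr1, a zinc finger factor induced within minutes by growth factors and activity, was 7.01 to 91.3 CPM (median 31.9) at 26 months and 8.05 to 35.5 CPM (median 14.3) at 28 months, with a log2-fold change of -1.14 ± 0.37 (SE, FDR = 0.265). Fos and Dusp1, named after their values were seen, were the other 2 nominally lower genes, with log2-fold changes of -1.02 ± 0.48 and -0.50 ± 0.22 (SE). Mice of both ages overlapped in all 3 genes, and for Egr1 8 of 9 older mice lay at or below the younger median.

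Metallothioneins and acute-phase genes gave the largest median of all lists, and it rested on replicate 2. Metallothioneins bind zinc and copper and are induced by metals, glucocorticoids and interleukin-6. Of 15 tested genes, 9 were nominally higher with all mice (60.0%, against 7.67% of all genes), 1 without replicate 2 and 5 without replicate 1. The median log2-fold change was 0.65 with all mice and 0.10 without replicate 2. Mt2 was 32.3 to 101 CPM (median 51.7) at 26 months and 7.86 to 701 CPM (median 45.8) at 28 months. Its log2-fold change of 1.28 ± 0.49 (SE, FDR = 0.320) was 0.23 without replicate 2. Mt1 ran from 33.3 to 103 CPM (median 49.7) at 26 months and from 9.22 to 546 CPM (median 47.0) at 28 months, with a log2-fold change of 1.05 ± 0.44 (SE, FDR = 0.348). In both genes the older group reached above the highest and below the lowest younger mouse, and the lowest mouse was replicate 3. Lcn2, Serpina3n and Slc39a14 gave log2-fold changes of 1.54, 1.22 and 1.25 with all mice and of -0.19, -0.06 and -0.12 without replicate 2.

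The promoters of both metallothioneins are printed because they hold matches to the core of the metal response element, the sequence bound by the zinc-sensing factor MTF1. Capitals mark its core, searched on both strands as TGCACNC or TGCGCNC, in the 250 bases before the RefSeq start (GRCm38.p6).
Mt1, chr8:94178839-94179088, plus strand: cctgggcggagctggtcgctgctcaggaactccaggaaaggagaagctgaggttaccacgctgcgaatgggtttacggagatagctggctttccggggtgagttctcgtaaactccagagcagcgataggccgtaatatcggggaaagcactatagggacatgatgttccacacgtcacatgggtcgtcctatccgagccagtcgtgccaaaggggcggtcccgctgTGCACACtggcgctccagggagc
Mt2, chr8:94172368-94172617, plus strand: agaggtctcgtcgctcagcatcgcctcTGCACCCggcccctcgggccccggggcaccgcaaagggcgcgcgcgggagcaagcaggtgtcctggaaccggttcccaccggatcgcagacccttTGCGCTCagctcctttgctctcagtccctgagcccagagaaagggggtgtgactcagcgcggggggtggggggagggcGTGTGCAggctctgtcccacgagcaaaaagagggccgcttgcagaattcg
The Mt2 window held 3 copies, a count reached by 1.26% of all windows. The Mt1 window held 1, and 21.4% of all windows held at least 1. Both were printed for their matches, so that the shares carry no test.

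Genes raised by glucocorticoids or fasting were spread at 28 months. Of 19 tested, 3 were nominally higher and 1 lower (15.8% and 5.26%, against 7.67% and 5.12% of all genes). The median log2-fold change was 0.20. Without replicate 2 the number higher was 1 and the median 0.11, and without replicate 1 they were 1 and 0.07. The lower gene was Angptl4, an inhibitor of lipoprotein lipase, named after its value was seen, with medians of 13.9 and 8.91 CPM and a log2-fold change of -0.71 ± 0.32 (SE, FDR = 0.359). The score of the list, its mean log2 level relative to all 18 mice, ran from -0.72 to 0.71 at 26 months (median -0.03) and from -1.69 to 1.14 at 28 months (median 0.24). The SD of the score was 0.44 at 26 months and 0.93 at 28 months. The higher genes were Irs2, Mt1 and Mt2. JAK-STAT genes had 5 of 28 nominally higher (17.9%, against 7.67% of all genes) and 0 lower, with a median of 0.10. Without replicate 2 the number higher was 2 and the median 0.03, and without replicate 1 the number was 0. With all mice the 5 were Pim1, Stat3 and the receptor gene Osmr and, named after their values were seen, Il6ra (0.65) and Stat5a (0.25). Stat3, the transcription factor of the interleukin-6 family, gave 0.46 ± 0.18 (SE, FDR = 0.332) and 0.19 without replicate 2.

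**Figure D2:**
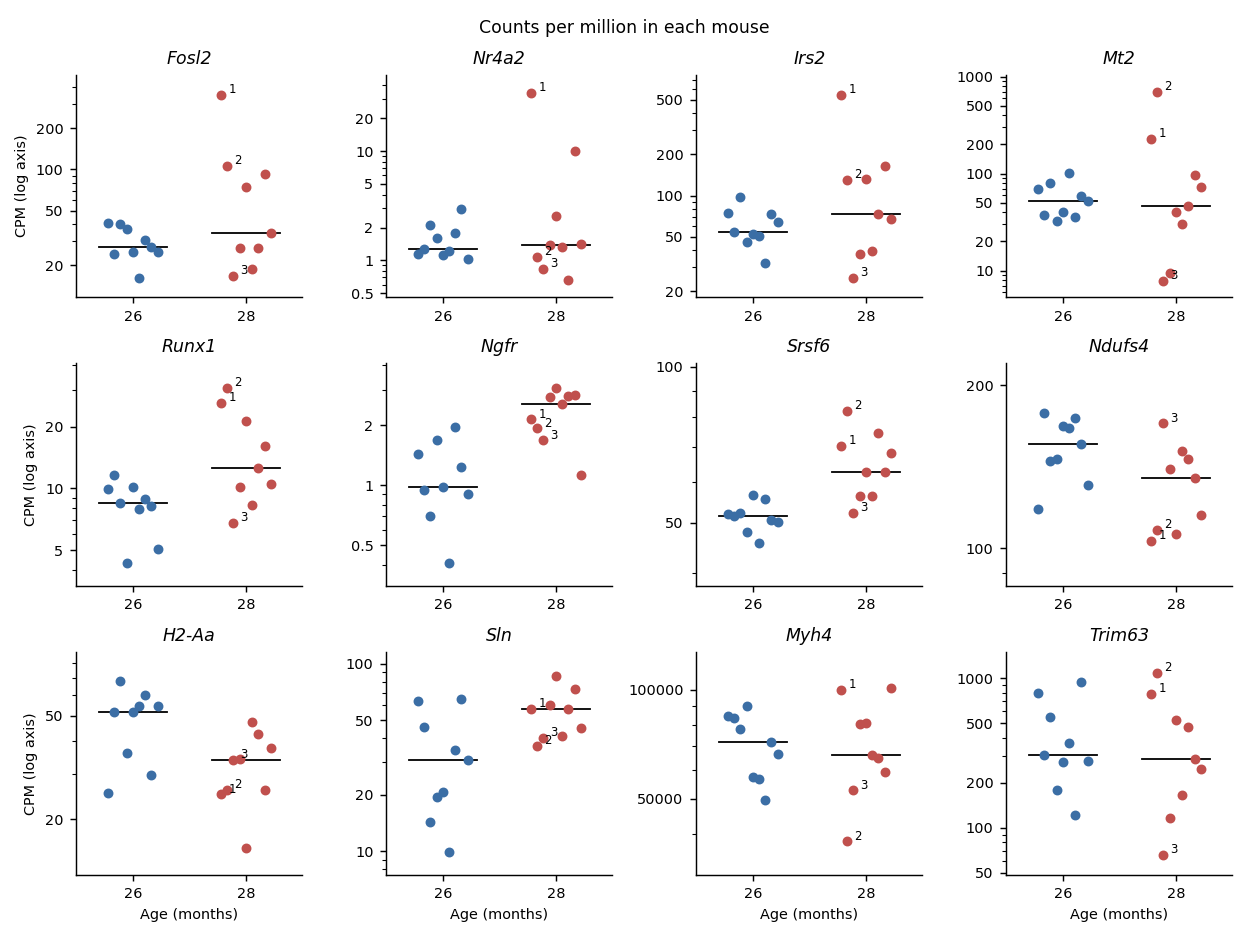
CPM on a log axis of 12 genes in each mouse of 26 (blue) and 28 months (red), with the median of each age as a line and replicates 1, 2 and 3 of 28 months numbered. Replicate 1 holds the top value of Fosl2, Nr4a2 and Irs2 and replicate 2 that of Mt2, whereas Srsf6 and Ngfr are shifted over most of the older mice and the ages overlap throughout in Myh4.

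Splicing regulators had a larger share of nominally higher genes, 33.3%, than all genes tested, 7.67%. These RNA-binding proteins of the SR, hnRNP and RBM families select exons, and kinases of the CLK family phosphorylate them. Of 42 tested, 14 were nominally higher and 0 lower, and 38 had a positive log2-fold change, against 52.0% positive among all genes. The median was 0.17, and it was 0.10 without replicate 2 with 8 still nominally higher. Srsf6, an SR protein that promotes exon inclusion, was 45.8 to 56.5 CPM (median 51.5) at 26 months and 52.2 to 82.2 CPM (median 62.7) at 28 months. The log2-fold change was 0.34 ± 0.07 (SE, FDR = 0.140) and stayed between 0.29 and 0.37 when each mouse was left out. All 9 older mice lay above the younger median and 6 above every younger mouse. Clk1, a splicing kinase, was 23.2 to 55.9 CPM (median 42.6) at 26 months and 27.0 to 120 CPM (median 57.5) at 28 months, a log2-fold change of 0.55 ± 0.16 (SE, FDR = 0.234).

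Mitochondrial genes were lower on average by small amounts. Complex I, the entry point of electrons from NADH, had 36 tested nuclear-coded subunits, of which 8 were nominally lower, 0 higher and all 36 negative in sign, with a median log2-fold change of -0.18, against 5.12% nominally lower and 48.0% negative among all genes. Without replicate 2 the median was -0.12 and 0 remained nominally lower. Ndufs4, an accessory subunit needed for assembly, was 118 to 178 CPM (median 156) at 26 months and 103 to 170 CPM (median 135) at 28 months, with a log2-fold change of -0.23 ± 0.10 (SE, FDR = 0.356). The groups overlapped, with 8 of 9 older mice at or below the younger median. Ndufs5 and Ndufc1, also accessory subunits, gave -0.21 ± 0.09 and -0.24 ± 0.11 (SE).

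Complexes II to V, which include cytochrome oxidase and ATP synthase, had 4 of 40 subunits nominally lower and 39 of 40 negative, with a median log2-fold change of -0.16. Without replicate 2, 1 was nominally lower and the median was -0.12. Cox8b, the muscle form of a cytochrome oxidase subunit, was 205 to 308 CPM (median 277) at 26 months and 135 to 275 CPM (median 213) at 28 months, so that all 9 older mice lay below the younger median. Its log2-fold change was -0.35 ± 0.12 (SE, FDR = 0.305). The other 3 were the ATP synthase subunits Atp5k (-0.29 ± 0.12 SE) and Atp5j (-0.24 ± 0.12 SE) and, named after its value was seen, the complex III subunit Uqcr11 (-0.26 ± 0.13 SE). Mitochondrial ribosomal proteins, which translate the mitochondrial genome, had 9 of 60 nominally lower and 57 negative, with a median of -0.11, against 5.12% nominally lower and 48.0% negative among all genes. Without replicate 2, 4 were nominally lower and the median was -0.08. Mrps16, of the small subunit, was lower than every younger mouse in 5 of 9 older mice (log2-fold change -0.28 ± 0.11 SE, FDR = 0.319). Cytosolic ribosomal proteins, by contrast, had 0 of 48 nominally different and a median of -0.03 (-0.01 without replicate 2), whose sign turned with limma on TPM.

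Fatty acid oxidation kept its shift without replicate 2. Of 27 tested genes, 4 were nominally lower (14.8%, against 5.12% of all genes), with a median log2-fold change of -0.16. Without replicate 2 again 4 were, with a median of -0.18, against 416 of all 12586 genes. Slc25a20, the carnitine carrier of the inner mitochondrial membrane, was 70.5 to 124 CPM (median 99.0) at 26 months and 61.7 to 103 CPM (median 82.8) at 28 months, a log2-fold change of -0.26 ± 0.09 (SE, FDR = 0.305). The others were the short-chain dehydrogenase Acads (-0.28 ± 0.13 SE), the electron transfer flavoprotein subunit Etfb (-0.19 ± 0.09 SE) and, named after its value was seen, the trifunctional protein subunit Hadhb (-0.25 ± 0.12 SE). The regulators of these genes were not nominally lower. Ppargc1a, which encodes the coactivator PGC-1alpha, had medians of 85.3 and 87.3 CPM and a log2-fold change of -0.11 ± 0.33 (SE, FDR = 0.898), and Esrra, the oestrogen-related receptor alpha, -0.27 ± 0.15 (SE, FDR = 0.444).

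**Figure D3:**
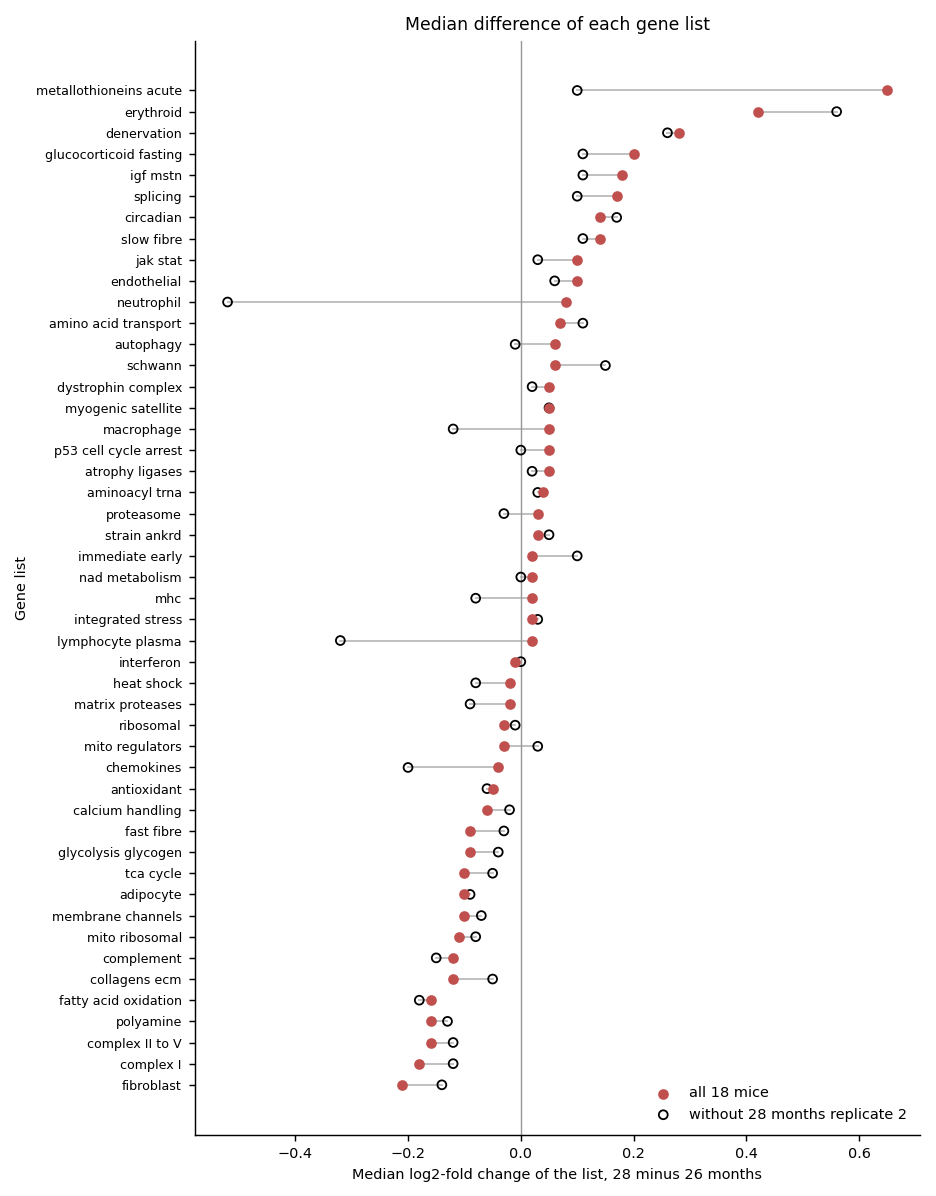
Median log2-fold change, 28 against 26 months, of each gene list with all 18 mice and without replicate 2 of 28 months. The denervation list lies at 0.28 and 0.26, the metallothionein and acute-phase list moves from 0.65 to 0.10, and complex I lies at -0.18 and -0.12.

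Genes of the contractile apparatus showed no shift of fibre type that exceeded the spread. Myh4, the myosin heavy chain of fast IIB fibres, was 49700 to 90500 CPM (median 71600) at 26 months and 38100 to 101000 CPM (median 65900) at 28 months, with a log2-fold change of 0.01 ± 0.14 (SE, FDR = 0.982) whose sign turned with upper-quartile factors. Myh7, the slow myosin, had medians of 421 and 650 CPM and a log2-fold change of 0.39 ± 0.43 (SE, FDR = 0.698). Of 9 slow fibre genes 0 were nominally different, with a median of 0.14. The median of 14 fast fibre genes was -0.09 (-0.03 without replicate 2, where 0 were nominally lower). With all mice 3 of them were nominally lower (21.4%, against 5.12% of all genes). Those 3 were Myl1, a myosin light chain (-0.30 ± 0.13 SE), Pvalb, the calcium buffer parvalbumin (-0.33 ± 0.15 SE), and Myoz1, a Z-disc protein (-0.24 ± 0.11 SE), and replicate 2 was the lowest mouse in each. Ttn, the giant sarcomeric protein titin, was 241 to 486 CPM (median 319) at 26 months and 287 to 756 CPM (median 451) at 28 months, a log2-fold change of 0.63 ± 0.19 (SE, FDR = 0.234) that was 0.65 without replicate 2.

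Calcium handling held genes of both signs, with 1 of 23 nominally higher and 3 lower, against 7.67% higher and 5.12% lower among all genes. Without replicate 2, 2 were higher and 2 lower. Sln encodes sarcolipin, a small inhibitor of the calcium pump SERCA, and was 9.86 to 64.9 CPM (median 30.7) at 26 months and 36.4 to 86.4 CPM (median 57.3) at 28 months. All 9 older mice lay above the younger median and 2 above every younger mouse, and the log2-fold change was 0.71 ± 0.34 (SE, FDR = 0.380). Its spread was narrower in the older group, with an SD of log2 CPM of 0.42 against 0.94. Mrln encodes myoregulin, a related inhibitor of SERCA in fast fibres, and lay on the other side, with 36.2 to 57.9 CPM (median 49.1) at 26 months and 21.8 to 45.2 CPM (median 34.9) at 28 months. All 9 older mice were below the younger median and 5 below every younger mouse (log2-fold change -0.42 ± 0.15 SE, FDR = 0.289). Stac3, which couples the voltage sensor to calcium release, gave -0.28 ± 0.10 (SE), and Srl, the sarcalumenin of the reticulum lumen, named after its value was seen, -0.16 ± 0.08 (SE).

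Glycolysis and glycogen metabolism had 1 of 28 genes nominally higher and 4 lower (3.57% and 14.3%, against 7.67% and 5.12% of all genes). The median log2-fold change was -0.09. Without replicate 2, 1 was higher and 1 lower, and the median was -0.04. Pfkfb3, which makes the activator of phosphofructokinase, was 115 to 723 CPM (median 257) at 26 months and 180 to 1460 CPM (median 563) at 28 months, a log2-fold change of 0.98 ± 0.34 (SE, FDR = 0.294). Ppp1r3c, which targets a phosphatase to glycogen and promotes its synthesis, was 819 to 2040 CPM (median 1330) at 26 months and 529 to 1520 CPM (median 678) at 28 months, so that 5 of 9 older mice lay below every younger mouse (log2-fold change -0.73 ± 0.31 SE, FDR = 0.348). The glycogen phosphorylase Pygm (-0.18 ± 0.09 SE), Pgm2 (-0.33 ± 0.15 SE), both named after their values were seen, and the phosphorylase kinase subunit Phkg1 (-0.22 ± 0.10 SE) were lowest in replicate 2.

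Protein breakdown genes did not shift together. Trim63, the ubiquitin ligase MuRF1, was 121 to 942 CPM (median 305) at 26 months and 65.9 to 1080 CPM (median 288) at 28 months, a log2-fold change of -0.03 ± 0.36 (SE, FDR = 0.976). Fbxo32, the ligase atrogin-1, was 612 to 2640 CPM (median 1130) at 26 months and 395 to 5440 CPM (median 1160) at 28 months, a log2-fold change of 0.34 ± 0.30 (SE, FDR = 0.618) that was -0.06 without replicate 2. In both ligases the older mice ran beyond both ends of the younger range, with replicate 2 highest and replicate 3 lowest.

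Of 19 atrophy genes, 3 were nominally higher and 4 lower with all mice, and 0 were higher and 3 lower without replicate 2. With all mice the shares were 15.8% and 21.1%, against 7.67% and 5.12% of all genes. The higher were Fbxo30, the ligase MUSA1 (0.63 ± 0.19 SE, 0.26 without replicate 2), and, named after their values were seen, Foxo3, a driver of ligase transcription (0.40 ± 0.19 SE), and Traf6, a signalling ligase (0.18 ± 0.08 SE). The lower were Asb2 (-0.34 ± 0.11 SE), Trim32 (-0.26 ± 0.08 SE) and, named after their values were seen, Fbxo40 (-0.24 ± 0.08 SE) and Stub1 (-0.21 ± 0.09 SE). Trim32, a ligase that acts on thin filaments and Z-discs, was 11.7 to 14.2 CPM (median 13) at 26 months and 7.89 to 13.5 CPM (median 10.5) at 28 months, with 6 of 9 older mice below every younger mouse. Proteasome subunits had 0 of 34 nominally different and a median log2-fold change of 0.03 (-0.03 without replicate 2), while replicate 2 was the highest mouse in 22 of them.

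Among p53 targets and cell cycle inhibitors, 4 of 21 were nominally higher and 1 lower, with 3 higher without replicate 2 and 2 without replicate 1. With all mice the shares were 19.0% and 4.76%, against 7.67% and 5.12% of all genes. Trp53inp1, a stress-induced p53 partner, was 19.4 to 48.7 CPM (median 28.6) at 26 months and 16.7 to 132 CPM (median 43.3) at 28 months, a log2-fold change of 0.90 ± 0.25 (SE, FDR = 0.234). Plk2, described above, was another, and the remaining 2, named after their values were seen, were the death receptor gene Tnfrsf10b (0.49 ± 0.17 SE), above the younger median in 9 of 9 older mice, and Btg2 (0.62 ± 0.30 SE). Phlda3, a p53-induced inhibitor of Akt, was lower, with 198 to 263 CPM (median 224) at 26 months and 117 to 228 CPM (median 173) at 28 months. Of the older mice 7 of 9 lay below every younger mouse, and the log2-fold change was -0.37 ± 0.11 (SE, FDR = 0.234). Cdkn1a, the cell cycle inhibitor p21, had medians of 50.3 and 61.2 CPM and a log2-fold change of 0.39 ± 0.31 (SE, FDR = 0.573) that was -0.06 without replicate 2. Eda2r, an ectodysplasin receptor known to rise with age, had medians of 94.7 and 98.3 CPM (log2-fold change 0.18 ± 0.19 SE, FDR = 0.687).

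Growth factor signalling had 6 of 31 genes nominally higher and 1 lower (19.4% and 3.23%, against 7.67% and 5.12% of all genes). The median log2-fold change was 0.18. Without replicate 2, 4 were higher and the median was 0.11. The lower gene, named after its value was seen, was Gdf11, a relative of myostatin (-0.64). Igf2, a fetal growth factor, was 19.6 to 36.1 CPM (median 21.3) at 26 months and 15.5 to 47.0 CPM (median 34.3) at 28 months, a log2-fold change of 0.49 ± 0.14 (SE, FDR = 0.234) that was 0.59 without replicate 2, its lowest mouse. Inhbb, which encodes the subunit of activin B, had medians of 2.38 and 2.42 CPM, and its log2-fold change of 0.86 ± 0.29 (SE, FDR = 0.289) was 0.30 without replicate 2. Oxidative stress genes were near the share of all genes (7.67% higher, 5.12% lower), with a median of -0.05 and 3 of 28 nominally higher, Gclc, Nfe2l2 and Hmox1, and 1 lower, the glutathione transferase Gsta3 (-0.62, named after its value was seen). Gclc, the rate-limiting enzyme of glutathione synthesis, was 15.5 to 24.3 CPM (median 16.2) at 26 months and 16.4 to 43.7 CPM (median 25.5) at 28 months, above the younger median in 9 of 9 older mice (log2-fold change 0.46 ± 0.12 SE, FDR = 0.206). Nfe2l2, which encodes the regulator NRF2, gave 0.71 ± 0.23 (SE) and 0.69 without replicate 2, whereas Hmox1, the haem-degrading oxygenase, gave 0.83 ± 0.29 (SE) and 0.19 without it.

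Polyamine metabolism had 2 of 13 genes nominally lower (15.4%, against 5.12% of all genes), and 1 without replicate 2. Amd1, which makes the aminopropyl donor of spermidine and spermine, was 565 to 2690 CPM (median 1420) at 26 months and 320 to 1820 CPM (median 663) at 28 months, a log2-fold change of -0.59 ± 0.25 (SE, FDR = 0.348). Sms, the spermine synthase, was 201 to 273 CPM (median 235) at 26 months and 161 to 225 CPM (median 201) at 28 months, with all 9 older mice below the younger median (log2-fold change -0.25 ± 0.10 SE, FDR = 0.339). Clock genes were near the share of all genes too, with 2 of 18 nominally higher, Cry2, a repressor of the clock (0.70 ± 0.23 SE, FDR = 0.265), and Clock itself (0.31 ± 0.12 SE, FDR = 0.315), and the hour of dissection is not analysed here.

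Antigen presentation by MHC class II showed a nominal shift. All 5 nominally lower of 21 tested MHC genes belonged to class II (23.8% of the list, against 5.12% of all genes). Nominally higher were 0, and 5 were again lower without replicate 2. The list as a whole had a median log2-fold change of 0.02, with 11 of 21 positive, and of -0.08 without replicate 2. H2-Aa, a class II alpha chain, was 25.2 to 68.2 CPM (median 51.7) at 26 months and 15.5 to 47.5 CPM (median 33.8) at 28 months, a log2-fold change of -0.58 ± 0.20 (SE, FDR = 0.290). Its partner chain H2-Ab1 gave -0.58 ± 0.22 (SE) and H2-Eb1 -0.62 ± 0.21 (SE). Cd74, the invariant chain, and H2-DMa, which loads the peptide, both named after their values were seen, gave -0.50 ± 0.19 and -0.46 ± 0.18 (SE). All 9 older mice lay below the younger median in H2-Aa, H2-Eb1 and Cd74, though the groups overlapped in each.

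Markers of the cells that carry class II did not all point the same way. Adgre1, the macrophage antigen F4/80, was the 1 nominally lower gene of 20 macrophage markers (log2-fold change -0.44 ± 0.20 SE), and Csf1r, the receptor of macrophage colony-stimulating factor, gave 0.24 ± 0.16 (SE) without a nominal difference. The median of the macrophage list was 0.05 with all mice and -0.12 without replicate 2, and its part in the class II values was not tested. Interferon-stimulated genes had 0 of 34 nominally different, and so had complement components with 0 of 18 (1 lower without replicate 2). Cxcl13, the B cell attracting chemokine, ran from 2.33 to 78.5 CPM (median 9.25) at 26 months and from 1.16 to 150 CPM (median 19.4) at 28 months, a log2-fold change of 0.51 ± 0.56 (SE, FDR = 0.695).

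Matrix and fibroblast genes had negative medians. Of 14 fibroblast markers, 3 were nominally lower (21.4%, against 5.12% of all genes), with a list median of -0.21. They were the matrix protein gene Dpt (-0.37 ± 0.15 SE), Pi16, a marker of progenitor-like fibroblasts (-0.56 ± 0.22 SE), and the actin-severing Gsn (-0.23 ± 0.10 SE). Without replicate 2, 2 were lower and the median was -0.14. The summed list was 1790 to 2590 CPM (median 2230) at 26 months and 1460 to 2460 CPM (median 1910) at 28 months. Collagens and matrix proteoglycans had 1 of 35 nominally higher, the lysyl oxidase Lox (0.45, named after its value was seen), and a median of -0.12. Without replicate 2 the number was 0 and the median -0.05. Kera, a small proteoglycan (-0.46 ± 0.37 SE), Nrep (-0.45 ± 0.31 SE) and the nicotinamide riboside kinase Nmrk2 (-0.33 ± 0.48 SE) were not nominally different. Among erythroid genes, Hba-a1, a haemoglobin alpha chain, had medians of 137 and 203 CPM (log2-fold change 0.58 ± 0.33 SE, FDR = 0.448), and 0 of 6 were nominally different with all mice. Without replicate 2, the lowest mouse in all 6, 2 were nominally higher and the median was 0.56 in place of 0.42.

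Outside the lists, the leading lower genes given here were shifts of less than 2-fold over most mice. Smtnl2, a smoothelin-like protein of muscle, was 266 to 449 CPM (median 317) at 26 months and 131 to 308 CPM (median 267) at 28 months, with all 9 older mice below the younger median (log2-fold change -0.53 ± 0.13 SE, FDR = 0.206). Anapc13, a subunit of the anaphase-promoting complex, was 26.5 to 37.3 CPM (median 33.0) at 26 months and 21.9 to 28.6 CPM (median 24.6) at 28 months, with 6 older mice below every younger mouse (log2-fold change -0.35 ± 0.09 SE, FDR = 0.227). Otub2, a deubiquitinating enzyme, gave -0.75 ± 0.20 (SE, FDR = 0.228), and Pnck, a calcium and calmodulin dependent kinase, -0.67 ± 0.18 (SE, FDR = 0.227). Zranb3, a DNA helicase of fork restart, gave -0.56 ± 0.15 (SE), and Mif4gd, a partner of histone mRNA translation, -0.34 ± 0.09 (SE). Full separation of the ages occurred in 2 genes, 0.0159% of those tested, both named after their values were seen. Msantd2 was 1.78 to 2.60 CPM at 26 months and 2.64 to 4.21 CPM at 28 months (log2-fold change 0.54 ± 0.14 SE, FDR = 0.206). Ap4s1, a subunit of the adaptor complex AP-4, was 47.3 to 54.2 CPM at 26 months and 38.7 to 47.2 CPM at 28 months (log2-fold change -0.17 ± 0.09 SE, FDR = 0.409).

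**Figure D4:**
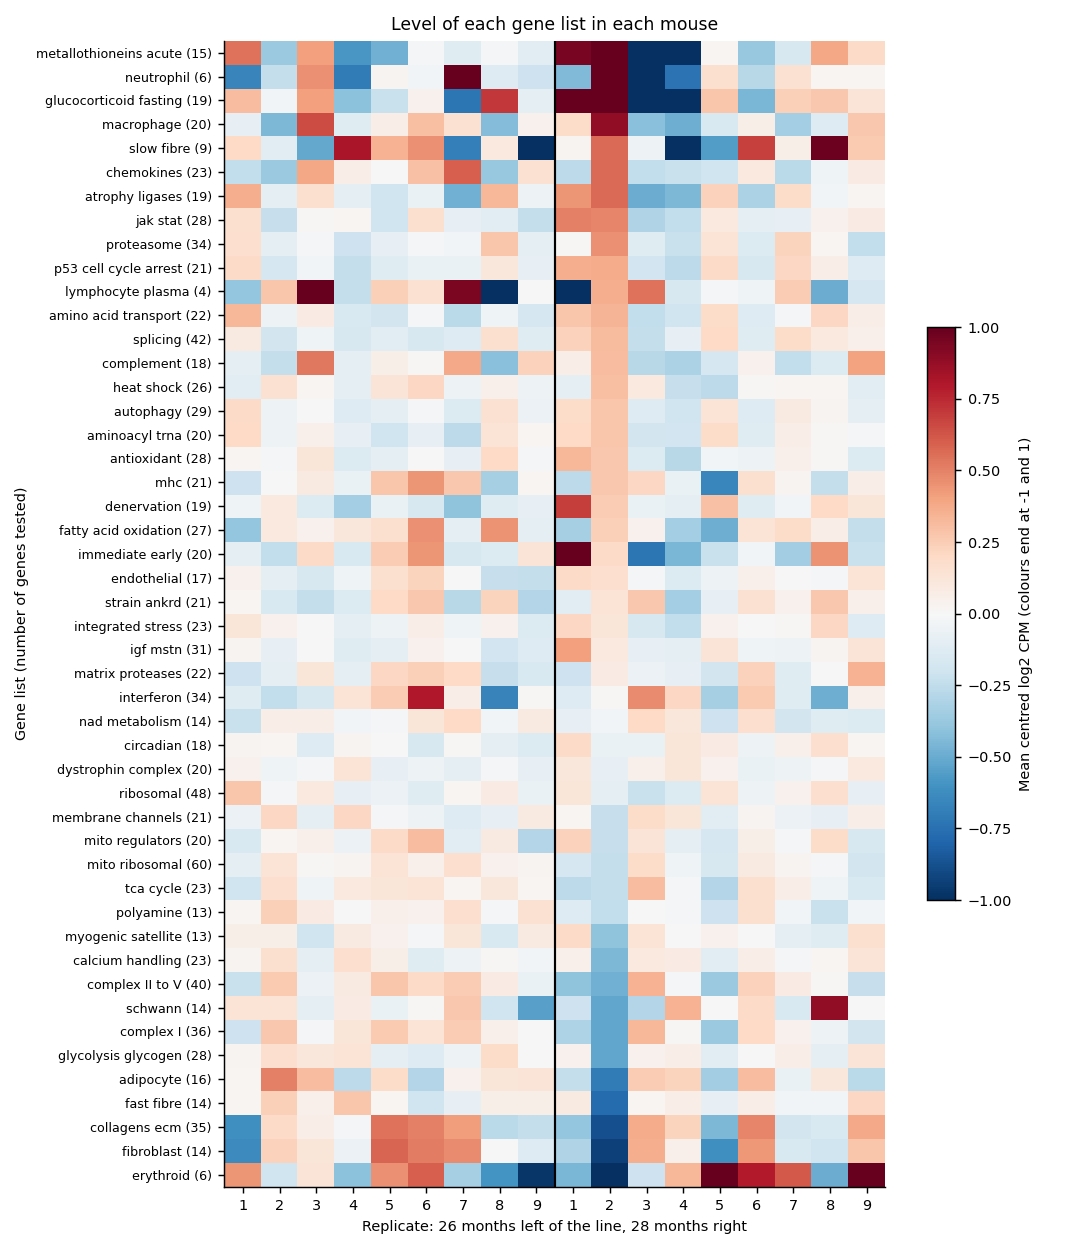
Score of 48 gene lists in each of the 18 mice, as the mean log2 CPM relative to the mean of all 18, with lists ordered by the value in replicate 2 of 28 months. That mouse is highest in 12 lists and lowest in 13, with metallothionein and acute-phase genes at 2.22 and erythroid genes at -2.16.

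The wide spread at 28 months was examined gene by gene. The median SD of log2 CPM was 0.241 at 26 months and 0.280 at 28 months, and 64.3% of the genes had the larger SD at 28 months. Without replicate 2 the older median was 0.245 and the share 50.6%. A ratio of SDs above 2 occurred in 728 genes with all mice and in 372 without replicate 2. In the test of unequal spread (limma on absolute deviations from the age median) 0 genes passed an FDR of 0.05 and 213 (1.69%) passed an unadjusted p of 0.05, 162 of them wider at 28 months. That share lies below the p threshold itself, so the test may be cautious. The count of 0 therefore does not show that the spread was equal.

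Genes named by the rule for spread are given as descriptions. Errfi1, a feedback inhibitor of the EGF receptor, was 61.6 to 93.5 CPM (median 70.5) at 26 months and 25.2 to 189 CPM (median 88.6) at 28 months. Of the older mice 3 lay above and 3 below the whole younger range, and the SD was 5.39 times as large. Steap4, a metalloreductase induced by inflammation, was 45.0 to 53.2 CPM at 26 months and 38.1 to 76.6 CPM at 28 months (ratio 3.73). Klf4, a Krüppel-like transcription factor, was 21.1 to 29.6 CPM at 26 months and 16.9 to 55.3 CPM at 28 months (ratio 3.33). In Errfi1, Steap4 and Klf4 the highest mouse was replicate 1 and the lowest replicate 3. Ppp1r15a, the phosphatase subunit GADD34 of the stress response, was 39.6 to 118 CPM at 26 months and 38.2 to 294 CPM at 28 months (ratio 2.12), highest in replicate 2. Genes with the opposite pattern included Plau, the urokinase plasminogen activator, with 16.5 to 41.0 CPM at 26 months and 23.8 to 30.9 CPM at 28 months (ratio 0.283), and Bmp6, a bone morphogenetic protein (ratio 0.289).

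**Figure D5:**
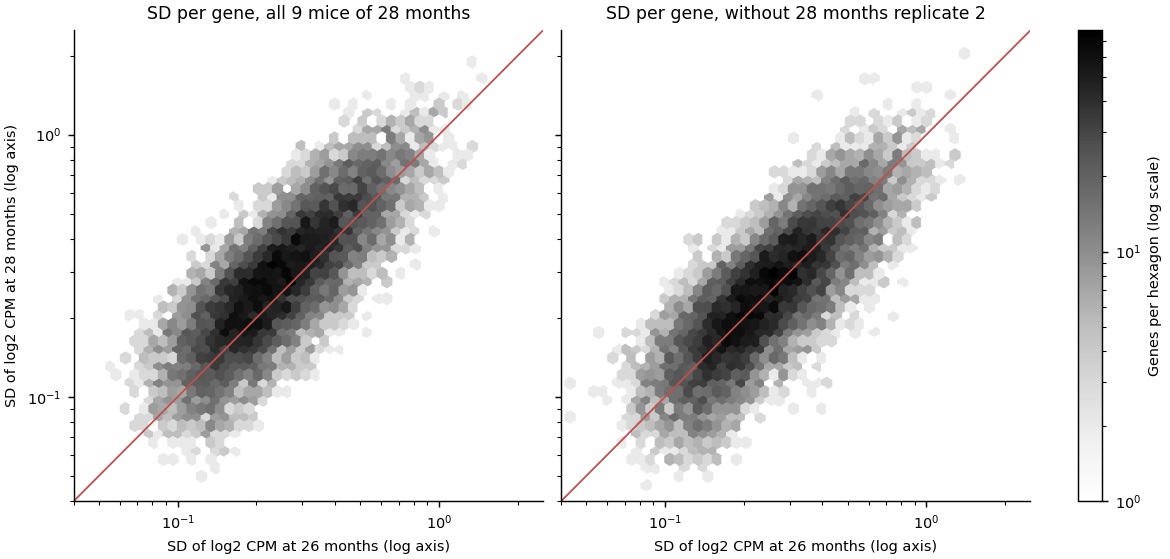
SD of log2 CPM per gene at 28 months against 26 months on log axes, for 12586 genes with all 9 older mice (left) and without replicate 2 (right), with the line of equal SD in red. The cloud lies above the line on the left, with 64.3% of genes wider at 28 months, and on the line on the right, with 50.6%.

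Different mice of 28 months were extreme in different lists. Among 48 lists with tested genes, replicate 2 had the highest score in 12 and the lowest in 13, replicate 3 the highest in 5 and the lowest in 8, and replicate 1 the highest in 8 and the lowest in 1. Replicate 1 had the top score of the denervation list, 0.69 against a highest younger score of 0.10, and of growth factor signalling, 0.41 against 0.04. Replicate 2 held the bottom score of fast fibre genes, -0.77 against a lowest younger score of -0.20, of calcium handling, -0.45 against -0.12, and of glycolysis and glycogen metabolism, -0.52 against -0.13. In the denervation list 5 of 9 older mice lay above every younger mouse and in growth factor signalling 4 of 9 did, while in fast fibre genes, calcium handling, and glycolysis and glycogen metabolism 1 of 9 older mice, replicate 2, lay below every younger mouse. Median scores at 26 and 28 months were -0.12 and 0.12 for denervation and 0.05 and 0.02 for fast fibre genes.

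The step from 26 to 28 months was set beside the earlier step from 22 to 24 months, which is of equal length and shares no mice with it. In the contrast of both steps 0 genes passed an FDR of 0.01 and 0 passed 0.05 with edgeR and with DESeq2, and 254 (2.02%) passed an unadjusted p of 0.05 with edgeR. The step from 26 to 28 months had 1609 nominal differences and the step from 22 to 24 months 478. The median log2-fold change of the denervation list was 0.28 between 26 and 28 months and 0.15 between 22 and 24 months, and that of complex I -0.18 and -0.06. Splicing regulators had medians of 0.17 and 0.08, and collagens -0.12 and -0.24. Between 24 and 26 months, a comparison that shares the 26 months-old mice with the main one, 0 genes passed an FDR of 0.01, 5 passed 0.05 and 2202 differed nominally. Its list medians were 0.22 for denervation, -0.11 for complex I and 1.15 for glucocorticoid and fasting genes, against 0.20 for the last between 26 and 28 months.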

How the data were processed

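Gastrocnemius RNA of 18 mice, 9 of 26 and 9 of 28 months, was compared, with the 32 mice of the other ages in the same fit. The authors trimmed the reads with Cutadapt 1.9.1 and assigned them with kallisto 0.43.1, using the strand, to protein-coding Ensembl transcripts of GRCm38, splitting reads that fit several transcripts evenly, so that values of near-identical gene copies are uncertain. The deposited counts are the authors' sums over the transcripts of a gene, whole numbers without normalization. The TPM values, as deposited, were scaled by the authors for transcript length and library size. The table holds 23880 genes, and 0 columns were left unused.

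A gene was kept if 8 or more of the 50 mice had 1 CPM or more. Under R 4.3.3, a single model of all 6 ages was fitted with edgeR 4.0.16 after TMM scaling, the contrast was taken by its quasi-likelihood test, and the Benjamini-Hochberg FDR had its threshold at 0.01. Spread was tested with limma 3.58.1 on absolute deviations of log2 CPM (prior count 1) from the age median, at an FDR of 0.05. PC1 came from log2(TPM + 1), centred by gene and by mouse, and exact permutation tests, two-sided, served for measures with 1 value in each mouse (Python 3.11.15, numpy 2.4.6, scipy 1.17.1, pandas 2.3.3, matplotlib 3.10.9). DESeq2 1.42.0, other scalings, filters and fits, and each mouse left out in turn were alternatives. Mice are separate animals, and the precision of each value is the spread between them. No 2 libraries agreed within sampling noise. The edgeR contrast and the test of unequal spread were also tried on simulated data.

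There were 38 pathway and 11 marker lists, 48 with tested genes. The members, lists and naming rule were chosen with earlier results of these data known. The list of 13 genes coded in mitochondrial DNA was not analysed here. Named genes were the 10 of at least 5 CPM with the smallest p in each direction, the 3 of each list with the smallest p, 8 genes of at least 5 CPM with wider spread at 28 months by the smallest p and the 4 with the smallest ratio of SDs, the 8 furthest above and 8 furthest below the other 17 mice in replicate 2 of 28 months, and 18 reference genes of old muscle (189 genes in all, without 2 that are not reported here). Promoters are RefSeq windows on GRCm38.p6.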

Additional observations from a re-analysis of the deposited data

Results flagged for a closer look

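A mouse was marked where its gap to the nearest mouse of its age, as a share of the range of that age, exceeded the 95% critical value of Dixon for 9 samples. Of 478 groups of 9 mice examined, 47 were marked, and chance marks about 5% of groups. Of the 47, 27 concerned 28 months replicate 2, 8 concerned 26 months replicate 1, 5 concerned 28 months replicate 1 and 3 concerned 26 months replicate 7. Genes chosen because 28 months replicate 2 was extreme in them are marked partly by that choice. The values below are these shares.

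For 28 months replicate 2, the distance from the mean profile of its age was marked at 0.512. Its list scores were lowest for fast fibre genes (0.704), glycolysis and glycogen (0.639) and calcium handling (0.597), and highest for chemokines (0.561) and neutrophil markers (0.599). Immune and acute-phase genes in which it was highest were Ptprc (0.782), Itgb2 (0.693), Plek (0.679), Socs3 (0.615), Chil3 (0.552) and Slc39a14 (0.514). Other genes in which it was highest were the amino acid transporter Slc43a2 (0.619), Gabpa (0.581), Clock (0.549), Kdr (0.533) and Psmd3 (0.532). It was lowest in the muscle genes Mss51 (0.65), Myoz1 (0.621), Tmem233 (0.614), Pvalb (0.557), Phkg1 (0.521) and Prkag3 (0.517), in Ache, the acetylcholinesterase of the synapse (0.697), and in the matrix genes Clec3b (0.62), Islr (0.617) and Timp2 (0.519).

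For 28 months replicate 1, the highest scores marked were those of the denervation list (0.503) and of growth factor signalling (0.552), and the genes were Myog (0.557), Pim1 (0.556) and Ppargc1a (0.533). Replicate 5 of 28 months was highest in the protease gene Mmp11 (0.505).

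At 26 months, replicate 1 was lowest in the succinate-CoA ligase genes Suclg1 (0.741) and Sucla2 (0.69), in Kera (0.649), Pnck (0.627), Zranb3 (0.621) and Stac3 (0.553), and highest in Igf2 (0.512) and Mbtd1 (0.508). Replicate 7 was highest in the neutrophil score (0.497) and in the receptor genes Csf3r (0.622) and Cxcr4 (0.564). The others were Cd247, lowest in replicate 9 (0.636), Mrps18a, lowest in replicate 3 (0.504), and Clk1, lowest in replicate 2 (0.498).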

How the results depend on the processing

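With 9 mice an age and a median SE of 0.12 on the log2 scale, differences of the size seen here, 0.11 in the median, are close to the resolution of the data. At an FDR of 0.01 the count of 0 became 1 without a filter on low counts (an unnamed gene model) and 1 with limma on log2(TPM + 1), and was 0 under the other alternatives and with each mouse left out. The 1609 nominal differences became 2473 with voom and sample weights, 1027 with only the 18 mice in the fit and 968 with the filter also set on them, and ranged from 952 (without 28 months replicate 2) to 2578 (without 28 months replicate 3) with each mouse left out. The cause was not tested. Genes of unequal spread ranged from 0 to 1 with each mouse left out (Hspg2 without 26 months replicate 7), and 213 nominal ones became 641 with deviations from the mean. The nominal count for the contrast of steps, 254, became 759 without a filter and 614 with voom weights. The PC1 difference ranged from 8.693 to 16.72 (exact permutation p 0.0645 to 0.292) with each mouse left out, the PC1 spread difference from 4.735 to 9.282 and the whole-profile difference from 0.0124 to 0.0651, all on the same side of the threshold.

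The labels reuse replicate numbers at each age without saying that they pair mice. Correlations of same-numbered mice ran from -0.375 to 0.369, 3 of 9 pairs were over 0.1, and 1 mouse of 26 months had its highest correlation with its own number. With the replicate number as a block, 0 genes passed an FDR of 0.01 and 1646 differed nominally, 0 genes were of unequal spread and Myh4 turned to -0.01.

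Of 125 genes followed under 28 alternatives, 12 changed sign in at least 1. Without single mice, log2-fold changes ranged from -0.06 to 0.53 for Cdkn1a, -0.26 to 0.97 for Cxcl13, -0.06 to 0.49 for Fbxo32, -0.16 to 0.61 for Itgb2, -0.19 to 1.82 for Lcn2, -0.07 to 0.09 for Myh4, -0.03 to 0.71 for Plek, -0.6 to 0.11 for Ppargc1a, -0.28 to 0.43 for Ptprc, -0.06 to 1.39 for Serpina3n, -0.12 to 1.52 for Slc39a14 and -0.35 to 0.21 for Trim63. With voom weights Ptprc was -0.18 and Itgb2 -0.04, and with upper-quartile factors Myh4 was -0.01. Of 1344 list medians, 0 moved by over 1 SD of the list's scores. That is a wide measure, and it does not show that the medians were stable. The median of metallothionein and acute-phase genes fell from 0.65 to 0.10 without 28 months replicate 2. The scores of that list had an SD of 1.08 at 28 months.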
